A study of Mus musculus with 7 samples.

Results

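The genes examined were 10 genes that make glutathione or remove peroxides and superoxide: Gclc, Gclm, Gss, Gsr, Gpx4, Prdx1, Prdx2, Sod1, Sod2 and Txnrd1. They were looked up by name among 33437 oocyte transcripts, each merged over its isoforms, and a transcript was taken where the table named the gene and placed it on the strand of that gene. This found 8 of the 10 genes, each as 1 transcript. The transcripts of Gss and Prdx2 are listed under neighbours on the opposite strand (Acss2 and Rnaseh2a); their spans match the annotated genes exactly, and their values, added by position, are kept out of the counts over the 8.

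Single germinal vesicle (GV) oocytes, fully grown oocytes still arrested in meiosis, were taken from 21-day-old C57BL6 females and sequenced as 1 oocyte per library. All females carried Setd1b floxed/floxed. Setd1b cKO oocytes came from females positive for Gdf9-Cre (N = 4 libraries), a recombinase driven by an oocyte promoter that acts from early follicle growth onward, and Setd1b WT oocytes from females negative for it (N = 3). The study's methods also count as WT females those with Gdf9-Cre and a single conditional allele, while the labels of the 3 WT libraries give Cre-negative animals. Which oocytes had the same mother is not given, so the spread between libraries is a spread between oocytes, and p-values measure only that. SETD1B methylates lysine 4 of histone H3, and the comparison asked what its loss does to the RNA of the oocyte. The values are RPM, read numbers after all libraries were brought to a common total of mapped reads.

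Library totals ran from 8582493 to 12972366 mapped reads, so that 1 read was worth 0.0771 to 0.117 RPM, and a transcript without a read allowed up to 3 reads, or 0.231 to 0.350 RPM (counting error only). Reads outside the transcripts made up 13.2% to 16.4% in the cKO and 9.57% to 9.90% in the WT. The second principal component, with 31.0% of the variance, set cKO replicate 4 and WT replicate 3 apart from the other 5 libraries, and values without them are given beside the genes concerned. Setd1b itself lay between 2.68 and 16.7 RPM in the cKO and between 8.61 and 17.7 RPM in the WT; the value covers the whole transcript, including sequence outside the floxed segment, and gives no check of the labels. Of 15 oocyte markers 14 were in the table, summing to 22339 to 24747 RPM in the cKO and 26795 to 29396 RPM in the WT. Of these 11 had a log2 fold change below 0, and Mos was past the threshold downward under the reported settings and all 20 alternatives (163 to 204 against 406 to 551 RPM; log2 fold change -1.34, limma adjusted p = 0.00581). Of 22 granulosa cell markers 19 were in the table and 10 stayed below 1 RPM in every library; their sum was 78.3 to 91.6 RPM in the cKO and 51.9 to 72.9 RPM in the WT, carried mostly by Cyp19a1 and Nr5a2, while Amh, Foxl2 and Krt18 had at most 0.174 RPM in any library. Other granulosa markers were present: Inha was at 7.03, 11.4, 13.2 and 0.583 RPM in the cKO and at 0.810, 4.32 and 0 RPM in the WT (log2 fold change 1.70, SE 0.76, limma adjusted p = 0.225, past the threshold under 3 of 20 alternatives). Gja1 and Fshr reached 5.14 and 5.15 RPM in the cKO and 2.31 and 2.92 RPM in the WT, with overlap. Of 18 markers of theca, stroma and blood 14 were in the table, 10 of them below 1 RPM throughout, with sums of 20.1 to 33.6 RPM in the cKO and 20.02 to 24.5 RPM in the WT, and Hba-a1, Hbb-bs and Lum had no read. Of that list 3 genes were tested. Dcn (5.15 to 7.25 against 0.891 to 3.09 RPM) and Cd68 (4.61 to 13.1 against 2.16 to 3.74 RPM) were past the threshold upward, Dcn also under 12 and Cd68 under 8 of 20 alternatives (adjusted p up to 0.111 and 0.167). Pecam1, the third, went the other way, at 7.31 to 18.0 RPM in the cKO and 13.0 to 19.5 RPM in the WT. Its ranges overlapped (log2 fold change -0.57, limma adjusted p = 0.369). The part of these cells in the results was not tested. In the RNA of a whole library, fewer cells of a type and less RNA per cell cannot be told apart.

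Glutathione is a tripeptide thiol that growing oocytes accumulate and that the egg later draws on to unpack the sperm nucleus. The ligase formed by GCLC and GCLM joins glutamate to cysteine, glutathione synthetase (GSS) adds glycine, and glutathione reductase (GSR) returns the oxidised form with NADPH. Superoxide is turned into hydrogen peroxide by the dismutases SOD1 and SOD2; peroxiredoxins remove the peroxide with electrons that TXNRD1 passes to thioredoxin, and GPX4 spends glutathione on peroxides of membrane lipids. Several of these genes are known targets of the transcription factor NRF2, which acts through antioxidant response elements.

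RefSeq (GRCm38.p6) gave promoter windows, 250 bases before to 50 bases after an annotated start, for 8 of the 10 genes, not for Gclc and Gsr. The core of the antioxidant response element, TGACNNNGC, was searched on both strands. It stood in the window nearest the oocyte transcript of 3 of these 8 genes, Gclm, Prdx1 and Sod1, and in 12.4% of 32851 windows of the same length. The sites are shown so that they can be read beside the values of these genes. Each line gives the strand opposite to the gene, 5′ to 3′, with the fixed bases of the motif in capitals:
Gclm: gtgagagtTGACggtGCgcccggga
Prdx1: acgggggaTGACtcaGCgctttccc
Sod1: cctgagtcTGACcacGCccaccttg
The matches lie at chr3:122245423-122245431, chr4:116685466-116685474 and chr16:90220706-90220714, which is 134, 133 and 56 bases before the RefSeq start. The oocyte transcripts of Gclm, Prdx1 and Sod1 start 103, 540 and 194 bases before that start, so that the Prdx1 and Sod1 matches lie inside the measured transcript and the Gclm match before it. The Sod2 transcript starts 2097 bases before its RefSeq start, outside the window. A match is a run of letters and not a measured site.

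SETD1B belongs to enzymes known to act at promoters rich in CpG. In GV oocytes, however, the study found that regions losing the trimethylated histone mark in the cKO were depleted of CpG. Regions gaining the mark were enriched for CpG. The study ties SETD1B to gene expression and a different methyltransferase to CpG content. Whether SETD1B acts at the windows examined here was not tested. Their CpG content was counted as a description. It differed widely among the genes, from 3 CpGs in Txnrd1 and 16 in Gss through 19 in Prdx1, 21 in Sod2, 27 in Prdx2, 31 in Gpx4 and 34 in Sod1 to 48 in Gclm, against a median of 7 over all windows. For Txnrd1 and Gpx4 the nearest of 3 and of 4 windows was used. The Txnrd1 window ends before its oocyte transcript, which starts 206 bases after the RefSeq start, so its low count may not be that of the promoter in use. The Gclm window held more CpGs than 98.8% of windows, that of Sod1 more than 92.3% and that of Gpx4 more than 89.4%. The windows of Gclm and Gpx4 are printed because Gclm and Gpx4 had higher RNA in every cKO library than in any WT library; both lie on the plus strand, at chr3:122245307-122245606 and chr10:80053315-80053614, and the capitals mark CpG:
Gclm: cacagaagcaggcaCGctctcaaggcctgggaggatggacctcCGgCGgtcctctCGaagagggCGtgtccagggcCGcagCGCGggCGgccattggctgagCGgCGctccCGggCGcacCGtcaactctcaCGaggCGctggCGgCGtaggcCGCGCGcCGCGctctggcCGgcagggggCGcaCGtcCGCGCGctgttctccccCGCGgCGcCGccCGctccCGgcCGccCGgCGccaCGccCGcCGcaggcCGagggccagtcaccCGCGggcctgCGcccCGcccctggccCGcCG
Gpx4: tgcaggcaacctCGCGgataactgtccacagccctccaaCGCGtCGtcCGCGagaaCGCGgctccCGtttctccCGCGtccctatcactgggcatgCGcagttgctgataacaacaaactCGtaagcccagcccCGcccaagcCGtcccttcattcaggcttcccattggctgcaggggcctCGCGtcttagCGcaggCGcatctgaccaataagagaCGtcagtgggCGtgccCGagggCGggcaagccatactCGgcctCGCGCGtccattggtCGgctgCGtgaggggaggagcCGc
No chromatin data were used here.

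Of the 8 genes found by name, Gclc alone was past the threshold in Setd1b cKO oocytes, with 9.51 against 3.56 RPM, and it rose. The threshold was a Benjamini-Hochberg adjusted p under 0.05 in limma over 18179 transcripts, with a change over 2-fold. None of the 8 was past it downward. Among all transcripts tested 683 (3.76%) were past the threshold upward and 355 (1.95%) downward. With each library centred on its median transcript these counts were 458 (2.52%) and 531 (2.92%), and Gclc was then no longer past the threshold. The values of Gclc, Gclm and Gpx4 did not overlap between the genotypes and were higher in the cKO, which is 3 of 8 genes, against 13.2% of all transcripts. None of the 8 was lower without overlap, against 7.14% of all transcripts. The median log2 fold change of the 8 genes was 0.33, with 6 above 0, and that of all transcripts was 0.12, with 60.3% above 0. With Gss and Prdx2 added by position the median was 0.086, with 6 of 10 above 0.

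**Figure D1:**
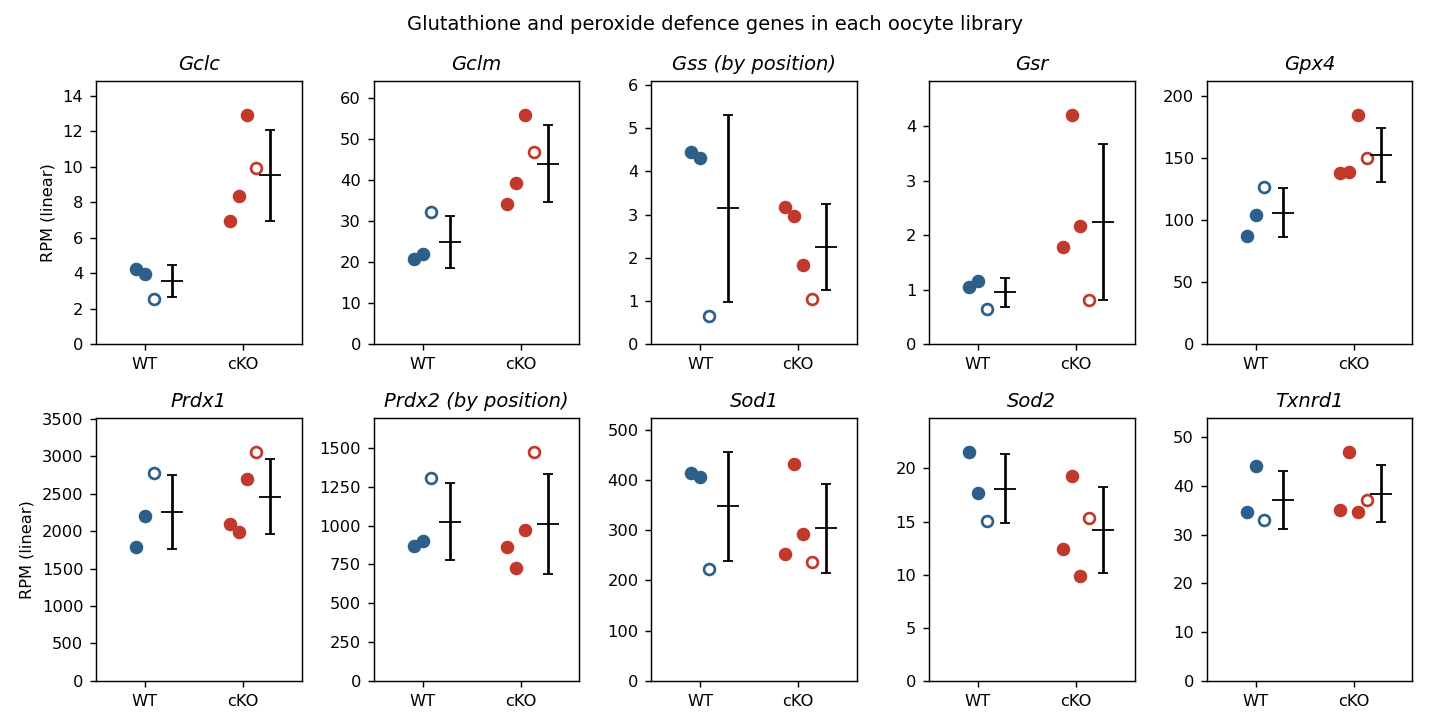
RPM on a linear axis from 0 for each of the 10 genes in every oocyte library, WT (N = 3) in blue and Setd1b cKO (N = 4) in red, with the mean and SD as bars beside the points; open circles are the libraries that stand apart, cKO replicate 4 and WT replicate 3. Gclc, Gclm and Gpx4 show no overlap between the genotypes, and the other 7 genes overlap.

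The subunits of glutamate-cysteine ligase, which sets the pace of glutathione synthesis, were both higher in every cKO library. Gclc, the catalytic subunit (GRCm38 chr9:77754535-77794490, plus strand), was at 6.93, 8.32, 12.9 and 9.90 RPM in cKO replicates 1 to 4 and at 4.21, 3.93 and 2.53 RPM in WT replicates 1 to 3. The lowest cKO oocyte was above the highest WT oocyte, on 27 to 148 reads per library. The means were 9.51 ± 2.56 RPM (SD, n = 4) and 3.56 ± 0.903 RPM (SD, n = 3), or 1.20 higher on the log2 scale (SE 0.29, 95% interval 0.55 to 1.84) with a limma adjusted p of 0.0397. The call was close to the threshold: it held under 6 of 20 alternatives, with log2 fold changes of 0.75 to 1.42 and adjusted p from 0.0283 to 0.111. It held without cKO replicate 4 (adjusted p = 0.0474). It was lost without cKO replicate 1 (0.0556), 2 (0.0661) or 3 (0.108) and without WT replicate 1 (0.09003), 2 (0.111) or 3 (0.102), and without both libraries that stand apart (log2 fold change 0.99, adjusted p = 0.0733).

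Gclm, the modifier subunit that makes the ligase more active (chr3:122245454-122269984, plus strand), was at 34.1, 39.2, 55.8 and 47.0 RPM in cKO replicates 1 to 4. In the WT it was at 20.7, 21.9 and 32.3 RPM, the last in replicate 3. The highest WT oocyte was just below the lowest cKO oocyte. The log2 fold change was 0.80 (SE 0.25, 95% interval 0.24 to 1.36), from 24.97 ± 6.36 RPM (SD, n = 3) to 44.0 ± 9.46 RPM (SD, n = 4), and did not pass the threshold (limma adjusted p = 0.0921). Without the libraries that stand apart it was 0.95 with an adjusted p of 0.0250, still under 2-fold; over 20 alternatives the adjusted p ran from 0.0250 to 0.279. The table holds another transcript under this name on the opposite strand (chr3:122257091-122293547), which overlaps the gene's 3′ part. It was at 53.2, 54.1, 93.8 and 83.0 RPM in the cKO and at 36.7, 36.0 and 58.8 RPM in the WT (log2 fold change 0.68, adjusted p = 0.188). The library kit keeps no strand, so reads of the shared stretch cannot be told apart.

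The subunits kept a narrow ratio in the cKO. Gclm RPM was 4.33 to 4.93 times Gclc RPM in the 4 cKO libraries and 4.92, 5.57 and 12.8 times in WT replicates 1 to 3, so that the genotypes just met. WT replicate 3 combined the lowest Gclc with the highest Gclm of the WT. A ratio within a library does not depend on the scaling between libraries.

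Gss, which completes glutathione (chr2:155563181-155592810, minus strand, by position), did not share the pattern. It was at 3.17, 2.96, 1.83 and 1.05 RPM in the cKO and at 4.45, 4.32 and 0.655 RPM in the WT. The genotypes overlapped fully, and the lowest value of each was in the libraries that stand apart. The log2 fold change was -0.22 (SE 0.45, 95% interval -1.22 to 0.79, limma adjusted p = 0.841) on 7 to 56 reads. It was 0.077 without WT replicate 1 and -0.58 without both libraries that stand apart. Gsr, the reductase (chr8:33652570-33698163, plus strand), was at 1.78, 4.20, 2.18 and 0.816 RPM in the cKO and at 1.05, 1.16 and 0.655 RPM in the WT. It rested on 7 to 51 reads and overlapped between genotypes (log2 fold change 0.64, SE 0.36, 95% interval -0.16 to 1.44, adjusted p = 0.349). Its size moved with the settings, to 0.26 with a pseudocount of 5 RPM, 1.04 on the log2 values as deposited, 0.38 without cKO replicate 2, 0.88 without cKO replicate 4 and 0.77 without both libraries that stand apart. Neither gene's interval excludes a difference in either direction.

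GPX4 is the selenium enzyme that protects membranes from lipid peroxidation. Its transcript (chr10:80053396-80056440, plus strand), which covers the downstream part of the annotated span, was at 138, 138, 184 and 150 RPM in cKO replicates 1 to 4 and at 87.1, 105 and 126 RPM in the WT. All 4 cKO oocytes were above all 3 WT oocytes. From 106 ± 19.7 RPM (SD, n = 3) to 153 ± 21.9 RPM (SD, n = 4), the log2 fold change was 0.53 (SE 0.21, 95% interval 0.05 to 1.002), with a limma adjusted p of 0.180. Without the libraries that stand apart it was 0.67, with an adjusted p of 0.0504, the lowest of 20 alternatives (up to 0.477). The interval reaches up to a doubling on this scale and down to almost no difference.

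Both peroxiredoxins, the abundant enzymes that clear hydrogen peroxide in the cytosol, differed more between oocytes of a genotype than between genotypes. Prdx1 (chr4:116685059-116700822, plus strand) was at 2095, 1994, 2697 and 3055 RPM in the cKO and at 1790, 2200 and 2770 RPM in the WT. The ranges overlapped over most of their length (log2 fold change 0.13, SE 0.26, 95% interval -0.45 to 0.71, limma adjusted p = 0.838), and the sign turned to -0.03 after centring on the median transcript. Prdx2 (chr8:84969587-84974834, plus strand, by position) was at 864, 729, 975 and 1474 RPM in the cKO and at 869, 900 and 1310 RPM in the WT, a log2 fold change of -0.05 (SE 0.28, adjusted p = 0.952). The highest Prdx1 and Prdx2 of each genotype were in cKO replicate 4 and WT replicate 3, and without these the log2 fold changes were 0.18 and -0.06.

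Txnrd1, the cytosolic thioredoxin reductase (chr10:82834157-82897732, plus strand), had nearly the same mean in both genotypes. It was at 35.0, 46.9, 34.6 and 37.2 RPM in the cKO and at 34.6, 44.0 and 33.0 RPM in the WT, with means of 38.4 ± 5.79 RPM (SD, n = 4) and 37.2 ± 5.95 RPM (SD, n = 3). The log2 fold change was 0.05 (SE 0.22, 95% interval -0.44 to 0.53, limma adjusted p = 0.937), and -0.11 after centring. A transcript on the opposite strand lies inside the gene (chr10:82845228-82859114), and without strand its reads cannot be told apart from those of Txnrd1. It was listed at 13.3, 10.8, 12.6 and 12.8 RPM in the cKO and at 6.64, 4.01 and 7.77 RPM in the WT, without overlap (log2 fold change 0.94, SE 0.27, adjusted p = 0.0692), and was past the threshold under 2 of 20 alternatives, with adjusted p from 0.0362 to 0.247.

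The dismutases were not past the threshold, and their log2 fold changes were below 0. Sod1, the copper-zinc enzyme of the cytosol (chr16:90220568-90228109, plus strand), was at 253, 432, 293 and 236 RPM in the cKO and at 413, 406 and 223 RPM in the WT (log2 fold change -0.18, SE 0.29, 95% interval -0.83 to 0.47, limma adjusted p = 0.786). The libraries that stand apart held the lowest Sod1 of their genotype, and without both the log2 fold change was -0.37 (adjusted p = 0.319). It ran from -0.47 without WT replicate 3 to -0.027 without WT replicate 1. Sod2, the manganese enzyme of mitochondria (chr17:13005742-13020024, plus strand), was at 12.4, 19.3, 9.84 and 15.4 RPM in the cKO and at 21.5, 17.7 and 15.1 RPM in the WT (log2 fold change -0.35, SE 0.27, 95% interval -0.96 to 0.25, adjusted p = 0.514). Sod2 ran from -0.50 without cKO replicate 2 to -0.20 without cKO replicate 3, and was at -0.52 without both libraries that stand apart. The genotypes overlapped for both genes.

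**Figure D2:**
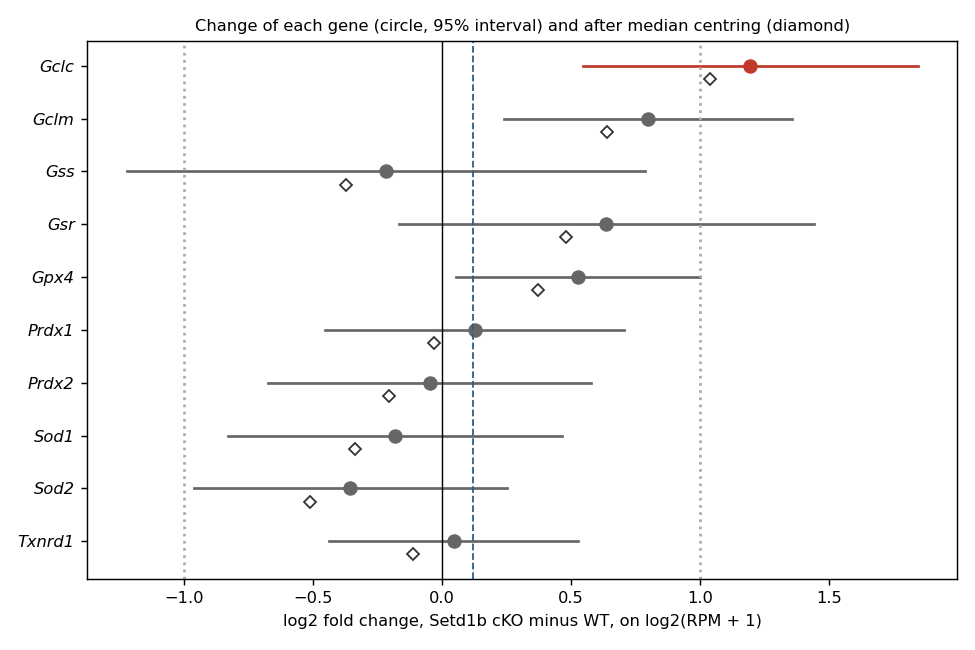
Log2 fold change of each of the 10 genes on log2(RPM + 1), Setd1b cKO minus WT (circle), with its 95% interval in limma, and the value after centring each library on its median transcript (diamond); the dashed blue line is the median of all transcripts (0.12) and dotted lines mark 2-fold. Only Gclc (red) was past the threshold; the intervals of Gclm and Gpx4 also lie above 0, and Prdx1 and Txnrd1 change sign with centring.

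Pairs of the genes were also set against each other within a library. Gclc was at 0.177 to 0.373 times the RPM of Txnrd1 in the cKO and at 0.0765 to 0.122 times in the WT, without overlap. Gpx4 was at 0.0491 to 0.0695 times the RPM of Prdx1 in the cKO and at 0.0456 to 0.0487 times in the WT. That pair also did not overlap, and cKO replicate 4 lay next to the WT. Gpx4 over Sod1 overlapped, at 0.320 to 0.634 in the cKO and 0.211 to 0.568 in the WT, as did Gclm over Txnrd1, at 0.835 to 1.61 and 0.497 to 0.977. Gpx4 over Txnrd1 overlapped too, at 2.95 to 5.34 and 2.38 to 3.83. In all 2 of 9 ratios computed were without overlap, and they were not tested. Their numerators, Gclc and Gpx4, were already without overlap and stood over genes with little difference, so these ratios largely restate those values.

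Several of the genes followed the split within the genotypes that was found from all transcripts tested. The share of all transcripts that follow it was not counted, so the pattern is not shown to be particular to these genes. In cKO replicate 4 and WT replicate 3, Prdx1 and Prdx2 were at the highest level of their genotype and Gss, Gsr and Sod1 at the lowest. Txn1, the thioredoxin that serves the peroxiredoxins, followed the first pattern, with 118 RPM in cKO replicate 4 and 104 RPM in WT replicate 3 against 45.5 to 75.9 RPM in the other 5 libraries. Its log2 fold change between genotypes was -0.01 (limma adjusted p = 0.994). Setd1b was also lowest in these libraries, at 2.68 and 8.61 RPM.

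Per kilobase of annotated exon, the WT RNA of Prdx1, Prdx2, Sod1 and Gpx4 was at a higher level than that of the other 6 genes. Prdx1 was at 886 ± 194 RPM per kb (SD, n = 3), Prdx2 at 553 ± 133, Sod1 at 542 ± 168 and Gpx4 at 83.4 ± 15.5. Txnrd1 followed at 9.13 ± 1.46 RPM per kb, Gclm at 4.47 ± 1.14 and Sod2 at 3.09 ± 0.556. Gss was at 1.601 ± 1.10 RPM per kb, Gclc at 1.04 ± 0.264 and Gsr at 0.357 ± 0.0990. The SD ranges overlapped between Prdx2 and Sod1, Gclm and Sod2, Sod2 and Gss, and Gss and Gclc, and also between Prdx1 and Sod1, so the order within these pairs is not resolved. The measured transcripts of Sod2 and Gpx4 share only 0.384 and 0.328 of their union with the annotated span, so their levels per kilobase are uncertain and may be too low.

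**Figure D3:**
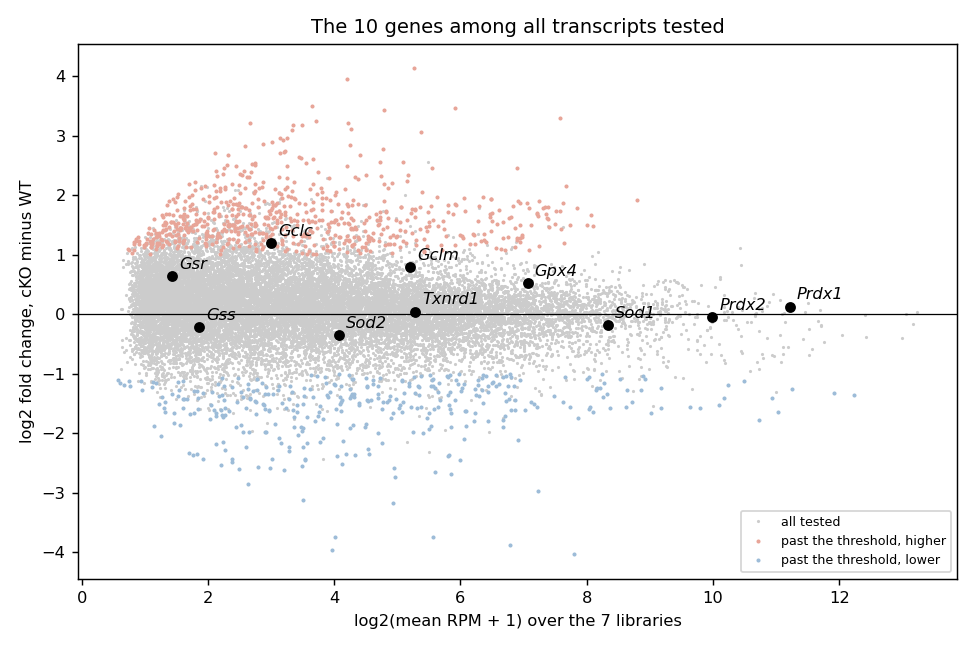
Log2 fold change on log2(RPM + 1), Setd1b cKO minus WT, against log2(mean RPM + 1) for all 18179 transcripts tested, with the 10 genes in black; transcripts past the threshold are red (683 higher) and blue (355 lower). Gclc is the only 1 of the 10 among the coloured points, and Prdx1 and Prdx2 lie at the abundant end near 0.

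How the rest of the network stood was asked with 7 lists of genes, 118 in all, of which 110 were in the table (21 of them by position) and 89 were tested. Of these 7 were past the threshold upward and 2 downward (10.1%, against 5.71% of all transcripts), with a median log2 fold change of 0.054. The share is not support for the lists, since 2 of the 7 upward calls, Slc1a1 and Gsto1, passed the filter on low values through the cKO alone. After median centring 4 were past the threshold upward (Slc1a1, Gstp1, Mgst1 and Prdx6) and 3 downward (Cth, Gpx6 and Slc7a11). The lists were chosen with earlier results of these data known, and the figures are descriptive.

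Cysteine is the scarce building block of glutathione, and its 6 tested genes moved in both directions, with 1 up, 1 down and a median of -0.14. Cth, which makes cysteine from cystathionine, fell from 40.5 ± 18.2 RPM (SD, n = 3) to 8.31 ± 5.74 RPM (SD, n = 4), which was -2.26 as a log2 fold change (SE 0.45, adjusted p = 0.0173 in limma). Its WT values were 60.8, 35.2 and 25.5 RPM and its cKO values 16.5, 6.67, 6.88 and 3.15 RPM, so no cKO oocyte reached the WT. A short opposite-strand transcript listed under the name lies inside the gene, and their reads cannot be told apart. The call was lost without cKO replicate 3 (0.0548) and without WT replicate 1 (0.0798) or 2 (0.0722). Slc7a11, the cystine importer, had the highest mean RPM of the list and was close to constant in the cKO, at 61.9, 64.2, 58.6 and 61.5 RPM, against 139, 126 and 90.6 RPM in the WT. Its log2 fold change of -0.91 (SE 0.21, adjusted p = 0.0307) did not reach 2-fold, but passed the threshold after centring (-1.07, adjusted p = 0.0168), after median-of-ratios scaling (-1.05), without WT replicate 3 (-1.09) and without both libraries that stand apart (-1.09). Over 20 alternatives its adjusted p ran from 0.00229 to 0.143. The table names 5 transcripts Slc7a11, and these values are of the only one that overlaps the RefSeq span (chr3:50364936-50499087), taken after all values were seen; it shares 0.141 of its union with the longer GENCODE span. The row with the highest mean, which lies outside the RefSeq span, went the other way, with 112 RPM in the cKO and 73.5 RPM in the WT (log2 fold change 0.56, SE 0.28, adjusted p = 0.281). Another row outside it was past the threshold upward, at 6.35 against 2.28 RPM (adjusted p = 0.0390). The direction given for Slc7a11 therefore rests on this choice, as do the sign of the list's median and the downward call of Slc7a11 after centring. Slc1a1, which imports cysteine and glutamate, rose to 10.2, 9.80, 2.96 and 2.33 RPM from 0, 0.540 and 0.936 RPM (log2 fold change 2.13, SE 0.48, adjusted p = 0.0268). It passed the filter on low values through the cKO alone and so had to differ, and an opposite-strand transcript shares its name. The call was lost without cKO replicate 1 (0.0703) or 2 (0.0592), without WT replicate 1 (0.114) or 2 (0.0987), and under 4 more of 19 alternatives: no filter (0.0668), a pseudocount of 5 RPM (0.0598), quantile normalisation (0.0539) and voom on the recovered reads (0.136).

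Among 19 tested genes that spend or break down glutathione, 3 rose, none fell past the threshold and the median was -0.24. Mgst1, a membrane-bound glutathione transferase, rose from 3.63 ± 2.36 to 14.5 ± 2.94 RPM (SD, n = 3 and 4; log2 fold change 1.87, SE 0.38, limma adjusted p = 0.0178), and the call was lost without cKO replicate 3 (0.0619) or WT replicate 1 (0.0580). Gstp1, a cytosolic transferase, rose from 67.0 ± 24.6 to 167 ± 40.0 RPM (log2 fold change 1.33, SE 0.28, adjusted p = 0.0199). Every cKO oocyte had more of it than every WT oocyte, with 123 to 221 against 50.2 to 95.2 RPM. Gstp1 has a near-identical neighbour, Gstp2, and reads may be shared. The measured transcript runs past the annotated span of Gstp1 and shares 0.374 of their union. Its call was lost without cKO replicate 1 (0.0564) or 3 (0.0628) and without WT replicate 1 (0.0956) or 2 (0.106). Gsto1 (by position) rose from 0.229 to 1.89 RPM on at most 29 reads (log2 fold change 1.21, adjusted p = 0.0416). It passed the filter through the cKO alone, and 13 of 19 alternatives ended its call, among them leaving out any library except cKO replicate 4 (adjusted p up to 0.170). Gstm5 (by position), a transferase with the highest mean RPM of the list, was at 216 ± 47.6 RPM in the cKO and 359 ± 56.2 RPM in the WT without overlap (log2 fold change -0.75, SE 0.23, adjusted p = 0.0880).

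Of 11 tested peroxidases, peroxiredoxins and related enzymes outside the 10 genes, 1 rose, 1 fell and the median was 0.23. Prdx6, which uses glutathione and reduces phospholipid peroxides as GPX4 does, rose to 77.5, 94.8, 52.0 and 30.8 RPM from 17.2, 16.6 and 17.7 RPM (log2 fold change 1.72, SE 0.34, limma adjusted p = 0.0171). The WT values were almost equal and the cKO values spread widely. Its call was lost without cKO replicate 1 (0.0556) and without WT replicate 1 (0.0640) or 2 (0.0780). Gpx6, a glutathione peroxidase known from olfactory tissue, fell to 6.43, 7.17, 9.40 and 5.71 RPM from 52.9, 53.6 and 22.5 RPM. Its log2 fold change was -2.35 (SE 0.33, adjusted p = 0.00448), and it stayed past the threshold under all 20 alternatives, with adjusted p up to 0.0334. An opposite-strand transcript listed under this name also lies inside the gene, with the same limit. Gpx1, the main cytosolic glutathione peroxidase, was at 18.1, 28.3, 43.7 and 8.04 RPM in the cKO and at 7.77, 12.9 and 4.40 RPM in the WT. The genotypes overlapped through cKO replicate 4 (log2 fold change 1.33, SE 0.51, adjusted p = 0.153). Without that library it was 1.75 with an adjusted p of 0.0191, and without both libraries that stand apart 1.41 with 0.0159; over 20 alternatives the adjusted p reached 0.334. The granulosa marker Inha was likewise lowest in cKO replicate 4 and WT replicate 3, and its part in the values of Gpx1 was not tested. Prdx5, with the highest mean RPM of the list, was at 145 ± 18.8 and 113 ± 27.3 RPM (log2 fold change 0.38, adjusted p = 0.368). Cat, which encodes catalase, had at most 0.699 RPM in any library and was not tested.

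None of 11 tested thioredoxin and glutaredoxin genes and none of 15 genes of NADPH supply was past the threshold, with medians of 0.24 and 0.025. Glrx, which encodes a glutaredoxin, was at 1740 ± 135 RPM in the cKO and 1646 ± 273 RPM in the WT (log2 fold change 0.09, limma adjusted p = 0.869, and -0.07 after centring). G6pdx (by position), which feeds NADPH to both systems, was at 208 ± 74.7 and 323 ± 139 RPM (log2 fold change -0.60, adjusted p = 0.390). It was also lowest in cKO replicate 4 (123 RPM) and WT replicate 3 (175 RPM), at -0.76 without both (adjusted p = 0.0452), and ran from -0.99 without WT replicate 3 to -0.31 without WT replicate 1. Srxn1, the sulfiredoxin that repairs peroxiredoxins, had no read in any library.

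Of 17 tested genes of NRF2 control and the oxidative stress response 1 rose and the median was 0.038. The factor itself, Nfe2l2, was at 13.9 ± 8.31 RPM in the cKO and 19.9 ± 7.32 RPM in the WT (log2 fold change -0.60, limma adjusted p = 0.504). It was lowest in cKO replicate 4 (4.89 RPM) and WT replicate 3 (11.8 RPM), at -0.53 without both, and ran from -0.93 without cKO replicate 2 to -0.21 without cKO replicate 4. Keap1 (by position), which holds NRF2 in check, was at 1.798 ± 0.863 and 1.73 ± 0.215 RPM (log2 fold change -0.02, adjusted p = 0.985). Ftl1, the ferritin light chain that stores iron, rose from 60.2 ± 18.2 to 128 ± 22.3 RPM (log2 fold change 1.10, SE 0.25, adjusted p = 0.0269). It has processed copies in the genome, its change was under 2-fold after centring (0.94) and median-of-ratios scaling (0.96), and its call was also lost without any library except cKO replicate 4 and WT replicate 3 (adjusted p up to 0.130). Rbx1, a ubiquitin ligase subunit with the highest mean RPM of the list, was at 566 ± 226 and 549 ± 230 RPM (log2 fold change 0.04, adjusted p = 0.969). Of 10 tested genes of selenoprotein synthesis, Selenop, which carries selenium between cells, rose from 2.17 ± 0.598 to 5.85 ± 0.940 RPM (log2 fold change 1.12, SE 0.27, adjusted p = 0.0394). Like Ftl1 it kept its call in the absence of cKO replicate 4 or WT replicate 3 and lost it without any other library (adjusted p up to 0.155). In all 11 of 20 alternatives ended its call, the others being centring (0.96, adjusted p = 0.0665), no filter (0.0949), quantile normalisation (0.0911), median-of-ratios scaling (0.0553), voom (0.0507) and a pseudocount of 5 RPM, where the change of 0.60 was under 2-fold. Secisbp2l, with the highest mean RPM of that list, was at 60.0 ± 12.3 and 82.5 ± 17.8 RPM (log2 fold change -0.46, adjusted p = 0.304), and the list's median was -0.07.

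**Figure D4:**
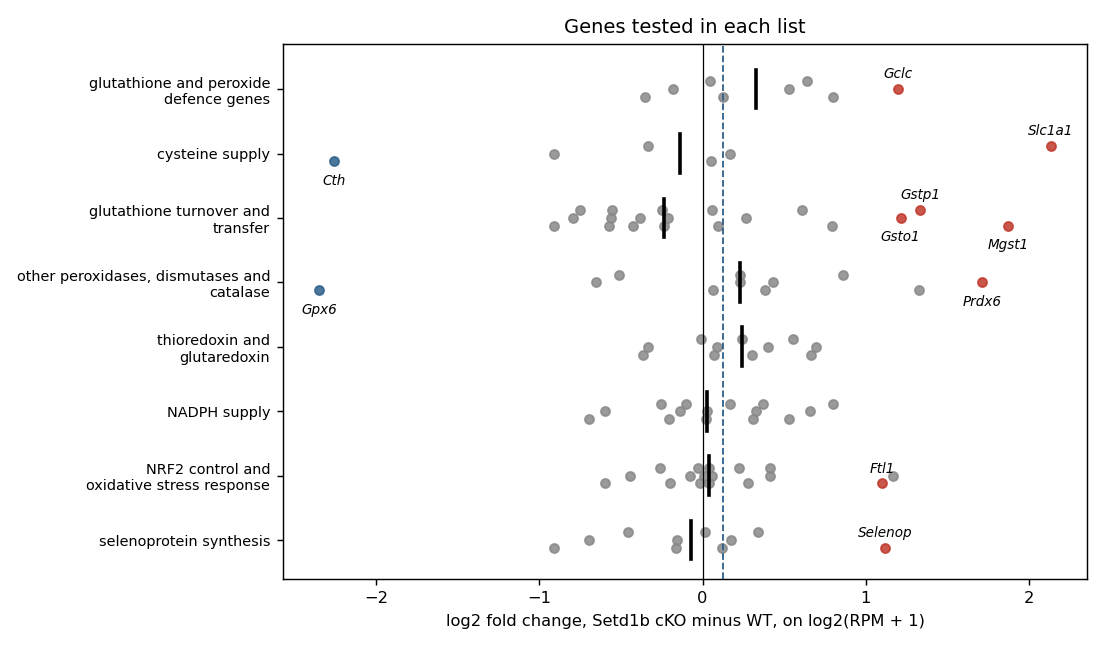
Log2 fold change on log2(RPM + 1), Setd1b cKO minus WT, of every tested gene in the 8 genes found by name and in each of the 7 lists; the black bar is the median of the list, the dashed blue line the median of all transcripts (0.12), and coloured, named points are past the threshold. Genes past the threshold lie on both sides in cysteine supply and among the other peroxidases, where Cth and Gpx6 fell.

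**Figure D5:**
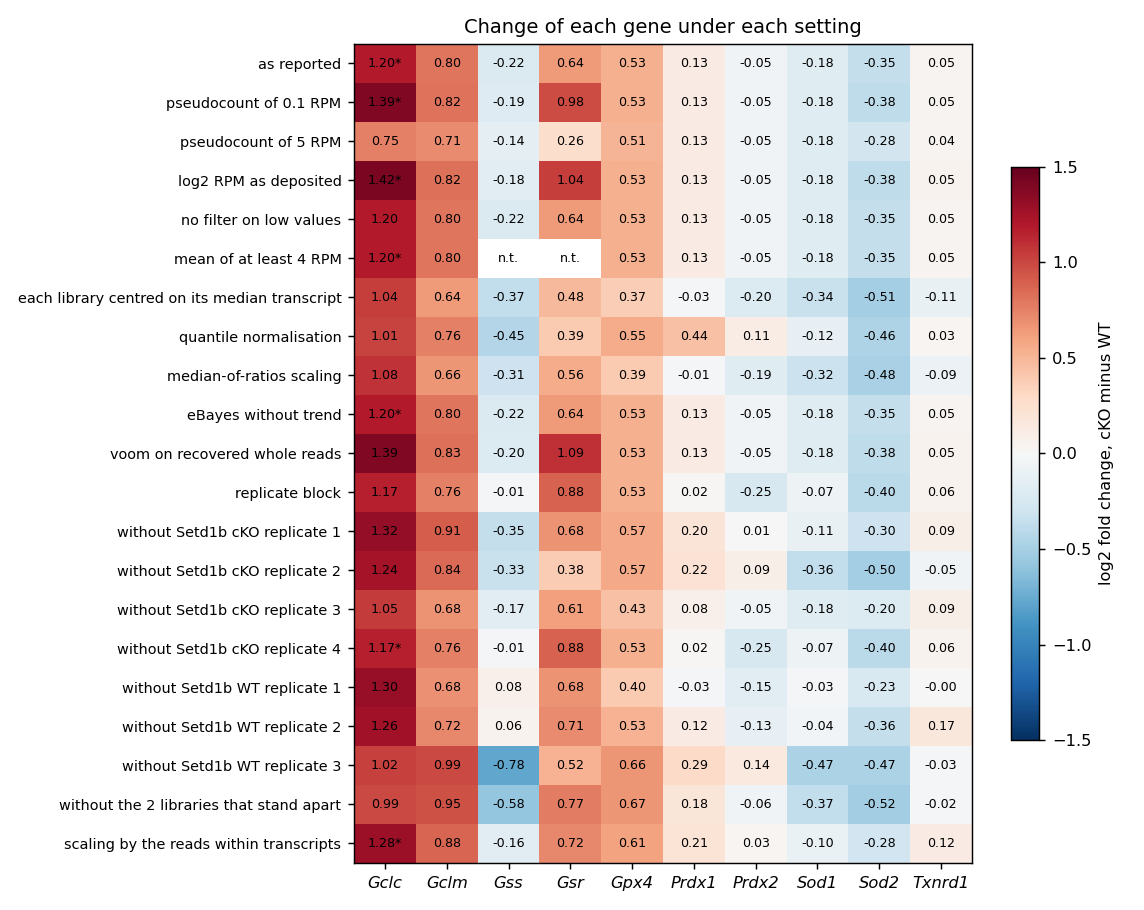
Log2 fold change of the 10 genes (columns), Setd1b cKO minus WT, under the reported settings and 20 alternatives (rows), coloured from -1.5 to 1.5; an asterisk marks a value past the threshold and n.t. a gene not tested. Gclc, Gclm, Gsr and Gpx4 are above 0 and Sod1 and Sod2 below 0 in every row tested, while Gss, Prdx1, Prdx2 and Txnrd1 change sign.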

How the data were processed

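Single-oocyte cDNA was amplified by the authors with the SMARTer Ultra Low kit, which keeps no strand, and sequenced as single reads. Reads were trimmed with trim galore, mapped with Hisat to GRCm38, filtered for mapping quality, which affects near-identical copies, and quantified in SeqMonk over oocyte transcripts defined earlier. Whether counting used the strand is not stated. The submitters' processing notes also name bcl2fastq 1.8.4 and featureCounts 1.4.4. The study fitted read counts. The authors deposited log2 RPM (reads scaled to each library's mapped reads), entering 0.9 read where a library had 0.

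The values were returned to linear RPM. Above the value for 0 reads, 100% of them were whole reads within 0.01 of their size, a check that bears only on scarce transcripts. As the deposited unit is log2 and not counts, limma 3.58.1 (R 4.3.3; lmFit, then eBayes with its trend option) gave two-sided tests of genotype on log2(RPM + 1), which understates the change of scarce transcripts. A transcript entered the test where 3 or more libraries reached 1 RPM, with Benjamini-Hochberg adjustment over 18179. No covariate was used, no library was left out, and the labels name no sequencing batch. Python 3.11.15 served for the rest. On simulated reads with 200 genes changed 4-fold, limma recovered 100% with 6 other calls among 18228 genes, and with no change made 0 calls among 18180. The changed genes all had a mean of at least 4 RPM. Smaller changes, and libraries that stand apart within a genotype, were not simulated. The simulation therefore does not describe the test on scarce or modestly changed genes.

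The 10 genes, the 7 lists and the tests were chosen with earlier results of these data known. Named genes were the 10, up to 4 genes past the threshold and the gene with the highest mean RPM in each list, Setd1b and the partners Nfe2l2, Keap1, Slc7a11, Txn1, Srxn1, Cat and Gpx1. The cell type markers named singly were chosen after their values were seen. Listed genes that the table names only under a neighbour were taken by position, where their span and that of the GENCODE M21 gene shared at least 0.5 of their union. Exon lengths came from GENCODE M21 and promoters from RefSeq. Results were recomputed as deposited (log2 RPM), with a pseudocount of 0.1 or 5 RPM, unfiltered, with a mean of 4 RPM or more, with median centring, quantile and median-of-ratios scaling, without trend, by voom on the recovered reads, with a replicate block and without each library. Scaling to reads within transcripts, leaving out the 2 libraries that stand apart, and adding Gss and Prdx2 were chosen after seeing the data. Summing the rows of a gene left all 8 as they were, since each had 1 row.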

Additional observations from a re-analysis of the deposited data

How the results depend on the processing

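Gclc was the single call among the 8 genes. The number called was 0 with a pseudocount of 5 RPM, with no filter, after median centring, quantile normalisation or median-of-ratios scaling, with voom, with the replicate block and without the 2 libraries that stand apart, and ran from 0 to 1 with 1 library left out; no gene of the 8 was called lower under any alternative. The median of the 8 genes, at 0.33, became 0.13 with a mean of at least 4 RPM, 0.17 after centring and 0.086 with Gss and Prdx2, and ran from 0.20 to 0.40 with 1 library left out. Over all transcripts the 683 higher calls became 315 with a pseudocount of 5 RPM, 396 with no filter, 428 after quantile normalisation and 443 with voom. With 1 library left out they ran from 172 to 857, at 379 and 317 without cKO replicates 1 and 3 and 247 and 172 without WT replicates 1 and 2, and the 355 lower calls ran from 117 to 435 (213, 221, 153 and 117 without the same libraries). The cause was not tested.

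Some log2 fold changes near 0 turned sign. After centring Prdx1 was at -0.028, Txnrd1 at -0.11, Glrx at -0.066 and Rbx1 at -0.12. After median-of-ratios scaling they were at -0.012, -0.090, -0.050 and -0.10. After quantile normalisation Prdx2 was at 0.11 and Txn1 at 0.0054. Scaled to reads within transcripts, Prdx2 was at 0.032, Keap1 at 0.031 and Txn1 at 0.070. Without the 2 libraries Txnrd1 was at -0.020, Keap1 at 0.20 and Txn1 at 0.034. Keap1 was at 0.0056 with a pseudocount of 5 RPM and 0.023 with voom. With 1 library left out Gss ran from -0.78 to 0.077, Prdx1 from -0.027 to 0.29, Prdx2 from -0.25 to 0.14, Txnrd1 from -0.052 to 0.17, Keap1 from -0.16 to 0.14, Txn1 from -0.28 to 0.30 and Rbx1 from -0.19 to 0.36.

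The replicate numbers did not pair the libraries: the deviations of same-numbered libraries correlated at 0.192, 0.295 and -0.129. With the number as a block, which gives cKO replicate 4 a level of its own, 924 transcripts were higher and 479 lower, Gclc lost its call (log2 fold change 1.17, adjusted p = 0.0595), Gpx1 passed the threshold (1.75, 0.0213), Keap1 was at 0.14 and Rbx1 at -0.19. Gss and Gsr rested on 7 reads and Keap1 on 8 in their lowest libraries, where counting error is large; whether depth set their results was not tested.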
